A study of Homo sapiens with 15 samples.

Results

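The genes described here are 37 genes of glucose use and the hypoxia response, of 23346 symbols in a table of gene counts. They were chosen by name from what their products do and not by a rule on their values, but with earlier results of these data known. All 37 passed the filter on low counts that left 17401 genes tested. By role they were 2 glucose transporters, 6 enzymes from hexokinase to phosphofructokinase, 2 enzymes that set the level of fructose-2,6-bisphosphate, 9 enzymes from aldolase to pyruvate kinase, 5 genes of lactate and pyruvate handling and 13 known targets of hypoxia-inducible factor (HIF). The libraries were bulk polyA RNA-seq of H9 cells, an established line of human embryonic stem cells, sampled daily during differentiation to definitive endoderm. Undifferentiated cells in E8 medium formed the day 0 group. The day 1 group had a day of activin A, a Nodal-like ligand, in Advanced RPMI together with the Wnt-activating GSK3 inhibitor CHIR99021, and the day 2, day 3 and day 4 groups had activin A alone after that. Each day had 3 libraries, numbered 1, 2 and 4, of 54723184 to 145857940 counts. All came from a single line, no label gives the oxygen level, and day 0 differed from the later days in medium as well as in time, so these cannot be told apart. Whether the libraries of a day were separate cultures is not labelled, and p-values cover only how these libraries vary, which may be technical variation. Definitive endoderm markers (SOX17, CXCR4, FOXA2, GATA6, CER1 and HHEX) summed to 4230 to 6188 CPM (counts scaled to library size) on day 2, against 27.0 to 33.9 CPM on day 0. In replicate 1 of days 3 and 4 they summed to 1037 and 886 CPM, against 2972 to 5574 CPM in replicates 2 and 4 of those days, and day 4 replicate 2 stood apart for the members, as described with the spread between libraries.

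Glycolysis turns glucose into pyruvate, and cells that rely on it export much of that carbon as lactate. Pluripotent stem cells are known for a strongly glycolytic metabolism that is remodelled as they leave pluripotency. HIF is a transcription factor whose alpha subunits are marked for destruction by oxygen-dependent prolyl hydroxylases, so that its targets, which include many glycolytic genes, rise when oxygen is low; other signals can also raise them.

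HIF binds DNA at a core spelled ACGTG or GCGTG. Promoter windows are shown for members with a small p in the joint test of the 5 days that hold a match. P4HA2, which holds none, is shown beside them. Windows run from 250 bases before to 50 bases after an annotated start and come from RefSeq, build GRCh38.p14, which is not the build the authors used. Capitals mark ACGTG or GCGTG on either strand, and overlapping matches make a single run of capitals. Of 37 members, 32 were in the RefSeq table; SLC2A3, SLC16A1, VEGFA, NDRG1 and BNIP3L were not. Of the 32, 29 (90.6%) held a match in at least 1 window, against 52.4% of 27305 genes. By motif, ACGTG was held by 21 of the 32 (65.6%, against 24.9% of all genes) and GCGTG by 19 (59.4%, against 40.6%). By window, 40 of 60 windows (66.7%) of members held a match, against 48.4% of 35116 windows. For ACGTG the shares of windows were 41.7% against 21.4%, and for GCGTG 40.0% against 36.5%. Members had more windows per gene than all genes, which raises a share counted by gene. The members were also chosen by name and include known HIF targets, and the shares of all genes were not matched for GC content. An excess of matches is therefore no result about these libraries. ADM, which fell and came back, has 1 match; MXI1, which was higher from day 2, has 2 in the shown window of its 3; BNIP3 has 6, 2 of which overlap; SLC16A3 has 3 in the shown window of its 5; and P4HA2 has none.
ADM, chr11:10304823-10305122, plus strand: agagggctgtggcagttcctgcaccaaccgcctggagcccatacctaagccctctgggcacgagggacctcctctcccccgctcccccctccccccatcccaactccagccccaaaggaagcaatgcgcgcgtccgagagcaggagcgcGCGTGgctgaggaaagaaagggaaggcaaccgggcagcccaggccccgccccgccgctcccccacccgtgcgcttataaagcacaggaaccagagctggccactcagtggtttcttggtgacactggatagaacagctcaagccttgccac
MXI1, chr10:110209981-110210280, plus strand: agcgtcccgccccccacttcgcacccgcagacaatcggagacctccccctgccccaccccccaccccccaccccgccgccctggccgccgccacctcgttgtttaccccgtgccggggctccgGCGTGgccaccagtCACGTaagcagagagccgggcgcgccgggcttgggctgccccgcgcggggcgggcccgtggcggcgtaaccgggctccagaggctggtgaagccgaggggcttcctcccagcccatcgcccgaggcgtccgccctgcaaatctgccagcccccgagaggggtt
BNIP3, chr10:131981874-131982173, minus strand: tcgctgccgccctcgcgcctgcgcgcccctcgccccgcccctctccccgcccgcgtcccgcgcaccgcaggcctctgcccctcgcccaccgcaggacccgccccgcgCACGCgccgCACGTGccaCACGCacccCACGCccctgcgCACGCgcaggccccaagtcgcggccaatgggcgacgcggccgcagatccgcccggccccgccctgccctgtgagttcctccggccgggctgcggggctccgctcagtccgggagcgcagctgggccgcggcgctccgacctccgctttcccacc
SLC16A3, chr17:82234649-82234948, plus strand: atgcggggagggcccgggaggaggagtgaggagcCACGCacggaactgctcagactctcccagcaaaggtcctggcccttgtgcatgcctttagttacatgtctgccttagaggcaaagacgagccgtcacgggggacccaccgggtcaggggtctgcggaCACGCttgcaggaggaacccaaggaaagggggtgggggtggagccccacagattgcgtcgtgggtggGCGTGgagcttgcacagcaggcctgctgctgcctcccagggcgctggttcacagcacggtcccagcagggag
P4HA2, chr5:132227042-132227341, minus strand: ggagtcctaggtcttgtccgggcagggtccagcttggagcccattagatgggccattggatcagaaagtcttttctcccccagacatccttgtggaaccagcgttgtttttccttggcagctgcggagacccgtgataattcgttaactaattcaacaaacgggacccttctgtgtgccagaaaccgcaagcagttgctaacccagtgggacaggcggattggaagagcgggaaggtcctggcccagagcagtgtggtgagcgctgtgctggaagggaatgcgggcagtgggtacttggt
Counted from the annotated start, the matches began at -101 in ADM, at -127 and -113 in MXI1, between -143 and -104 in BNIP3, and at -216, -89 and -22 in SLC16A3. For MXI1 and SLC16A3, no other window of the gene held more matches than the shown one. A match is a string of letters and not a measured binding site.

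Over 4 days the glucose transporter SLC2A3, pyruvate kinase, the lactate exporter SLC16A3 and 7 of 13 HIF targets rose, while SLC2A1, GAPDH and LDHB fell. On day 4 against day 0, edgeR's quasi-likelihood test called 17 of 37 members (45.9%), against 34.2% of all genes tested. Of these, 14 were higher (37.8% of members and 18.0% of all genes) and 3 lower (8.11% of members and 16.2% of all genes). The median log2 fold change was 0.73 over the members and -0.02 over all genes tested. Without day 0 replicate 1, 9 members were higher (13.9% of all genes in that fit), and without day 4 replicate 2, 5 were lower (9.1% of all genes). The day-to-day steps held few calls. On day 1 against day 0, 3 members were called, against 10.4% of all genes, 2 of them higher (5.49% of all genes) and 1 lower (4.88%). On day 2 against day 1, 3 were called (8.27% of all genes), 1 higher (4.93%) and 2 lower (3.34%). On day 3 against day 2, 3 were called (0.948% of all genes), all higher (0.661%), and 0 were lower (0.287%), with 0 lower by DESeq2 too and 2, LDHA and LDHB, lower at an unadjusted p under 0.05. With the replicate number as a block (same-numbered libraries of days 3 and 2 deviated together) the members' counts of that step were unchanged and all genes had 371 higher and 219 lower, against 115 and 50. On day 4 against day 3, edgeR called 0 of 17401 genes (0.0%), DESeq2 called 0 members and 64 genes in all, and 2 members, SLC16A3 and SLC2A3, had an unadjusted p under 0.05, as did 1074 of all genes. That edgeR fit had no term for replicate number, though same-numbered libraries of these days also deviated together (correlations 0.22 to 0.63). Counts for this step from the fit with that term are not given here. The 0 calls therefore do not show that no gene changed. The joint test of the 5 days called 16 members (43.2%), against 37.3% of all genes, which is near that share.

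These step counts rest on single libraries in several cases. Without day 0 replicate 1 or 2, 1 member was higher on day 1 than on day 0 (3.52% and 3.68% of all genes). Without day 0 replicate 4, 2 were lower (6.52% of all genes). On day 2 against day 1, 0 members were lower without day 1 replicate 1, day 2 replicate 1 or day 2 replicate 2 (1.28%, 1.35% and 1.03% of all genes). In the same step 2 were higher without day 0 replicate 1, day 0 replicate 4 or day 2 replicate 4 (5.37%, 5.56% and 4.35%). On day 3 against day 2, 0 were higher without day 2 replicate 1 or 2 (0.0225% and 0.0281% of all genes). Without day 3 replicate 1, 1 was higher (0.0901%). By library values alone, 13 members were higher on day 4 than on day 0 with no overlap of libraries (21.1% of all genes) and 4 were lower (19.5%). On day 1 against day 0 these counts were 12 higher (15.8%) and 5 lower (14.1%), on day 2 against day 1 they were 10 higher (17.2%) and 6 lower (18.5%), on day 3 against day 2 they were 7 higher (9.1%) and 3 lower (8.75%), and on day 4 against day 3 they were 1 higher, SLC2A3 (4.95%), and 1 lower, LDHB (4.32%).

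**Figure D1:**
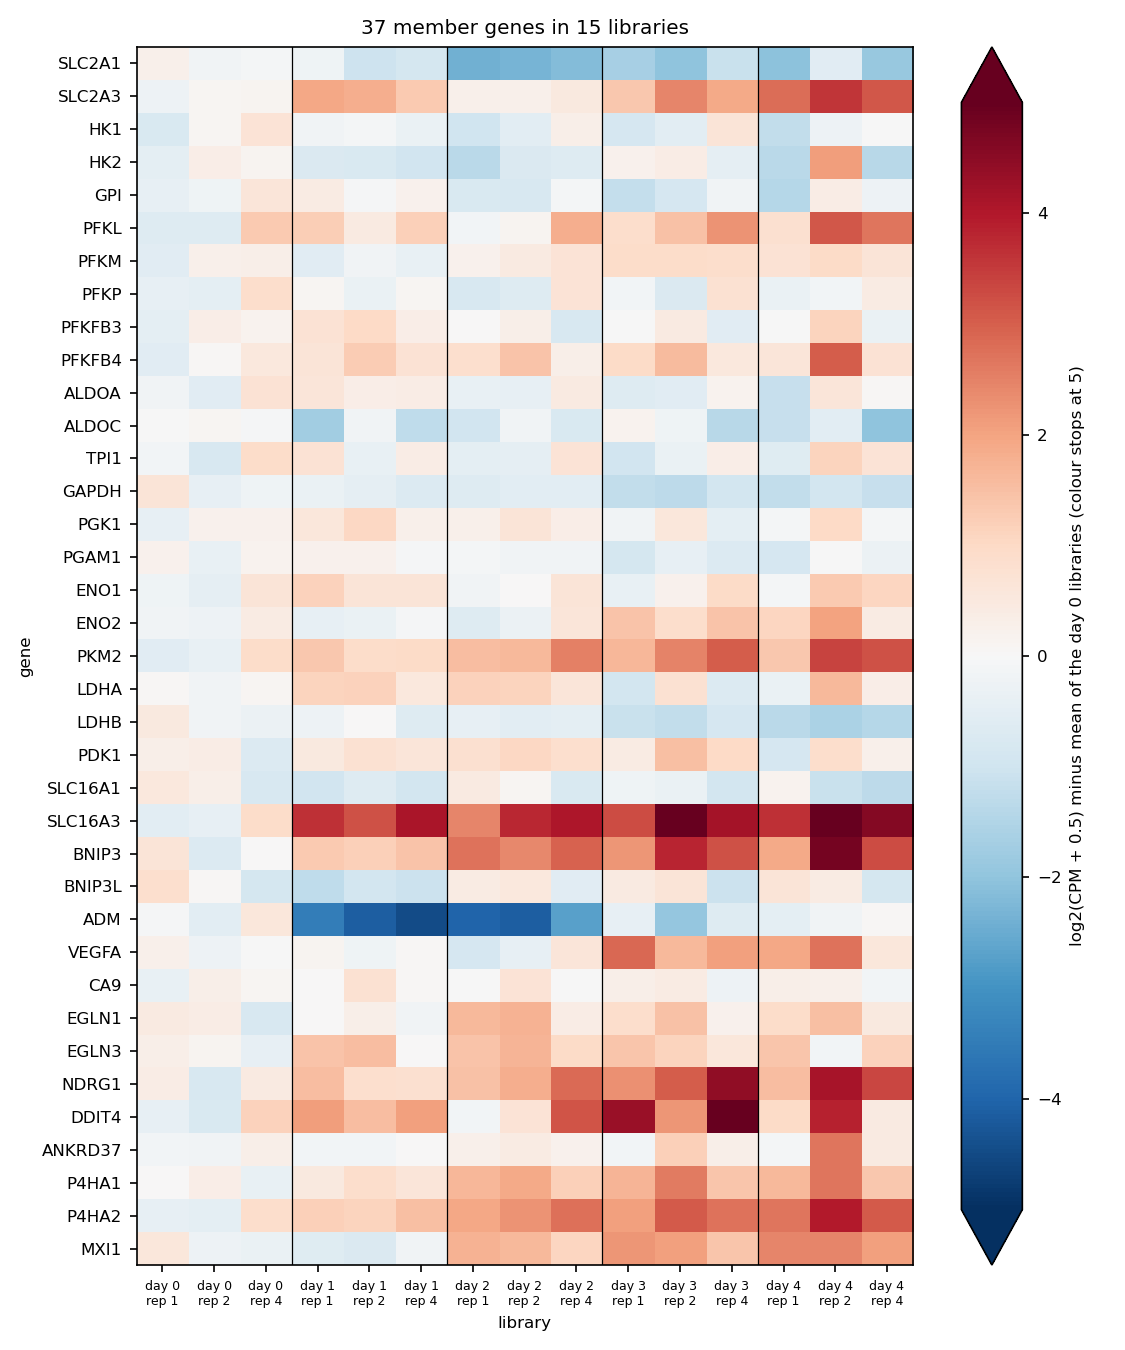
Level of each of the 37 members (rows, by role) in each library (columns, by day and replicate), as log2(CPM + 0.5) minus the mean of the day 0 libraries; red is higher and blue lower, and colour stops at 5. SLC16A3, BNIP3, NDRG1, P4HA2 and PKM2 are red on day 4, ADM is blue on days 1 and 2, and day 4 replicate 2 is redder than its neighbours for many genes.

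The 2 glucose transporters moved apart. SLC2A1 encodes GLUT1, the widely expressed basal glucose transporter, and SLC2A3 encodes GLUT3, a transporter of high glucose affinity. In the order replicate 1, 2 and 4, SLC2A3 had 778, 1000.2 and 1022 CPM on day 0, 3575, 3283 and 2282 on day 1, 1112, 1100.2 and 1292 on day 2, 2355, 5057 and 3487 on day 3 and 6348, 10986 and 7964 on day 4. Every day 4 library stood above every library of days 0 to 3. SLC2A3 rose on day 1 against day 0 (log2 fold change 1.71 with SE 0.31, adjusted p = 0.00173), fell on day 2 against day 1 (log2 fold change -1.38 with SE 0.31, adjusted p = 0.0104), and rose on day 3 against day 2 (log2 fold change 1.64 with SE 0.31, adjusted p = 0.0219). On day 4 against day 0 its log2 fold change was 3.18 (SE 0.33, adjusted p = 5.54e-06). The SE here and throughout was derived from the test statistic. SLC2A1 had 889.5, 657 and 699.7 CPM on day 0, 642, 365 and 400.0 on day 1, 142, 149 and 164 on day 2, 233, 184 and 339.8 on day 3 and 177, 508 and 200.3 on day 4. Its libraries of days 0 and 1 did not overlap, and those of day 2 were lowest. SLC2A1 fell on day 2 against day 1 (log2 fold change -1.63 with SE 0.39, adjusted p = 0.0155) and on day 4 against day 0 (log2 fold change -1.34 with SE 0.38, adjusted p = 0.0136). The calls on day 2 against day 1 were lost without day 1 replicate 1, day 2 replicate 1 or day 2 replicate 2 (adjusted p up to 0.0674 for SLC2A3 and 0.103 for SLC2A1). SLC2A3 on day 3 was lost without day 2 replicate 1, day 2 replicate 2 or day 3 replicate 2 (adjusted p up to 0.15), and SLC2A1 on day 4 without day 0 replicate 1, day 4 replicate 1 or day 4 replicate 4 (up to 0.0743).

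The log2 ratio of SLC2A3 to SLC2A1 within a library was -0.19, 0.61 and 0.55 on day 0, 2.48, 3.17 and 2.51 on day 1 and 5.16, 4.43 and 5.31 on day 4. No day 4 library overlapped a day 0 one, with a difference of 4.65 (SE 0.37, exact permutation test, two-sided p = 0.1); 0.1 is the smallest p that 3 against 3 allows. Per kilobase of exon, SLC2A3 was 1.27 times SLC2A1 on day 0, 6.62 times on day 1, 7.85 on day 2, 14.7 on day 3 and 29.1 on day 4. By mean CPM per kilobase, SLC2A3 ranked 2 of 37 members on day 4, at 2154, and 8 of 37 on day 0. SLC2A14, a near-identical neighbour gene of SLC2A3, had a mean of 40.4 CPM on day 4, against 4.39 CPM on day 0 (log2 fold change 3.20, adjusted p = 6.66e-05), and since reads may have been split or shared between the pair, SLC2A14 is uncertain.

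**Figure D2:**
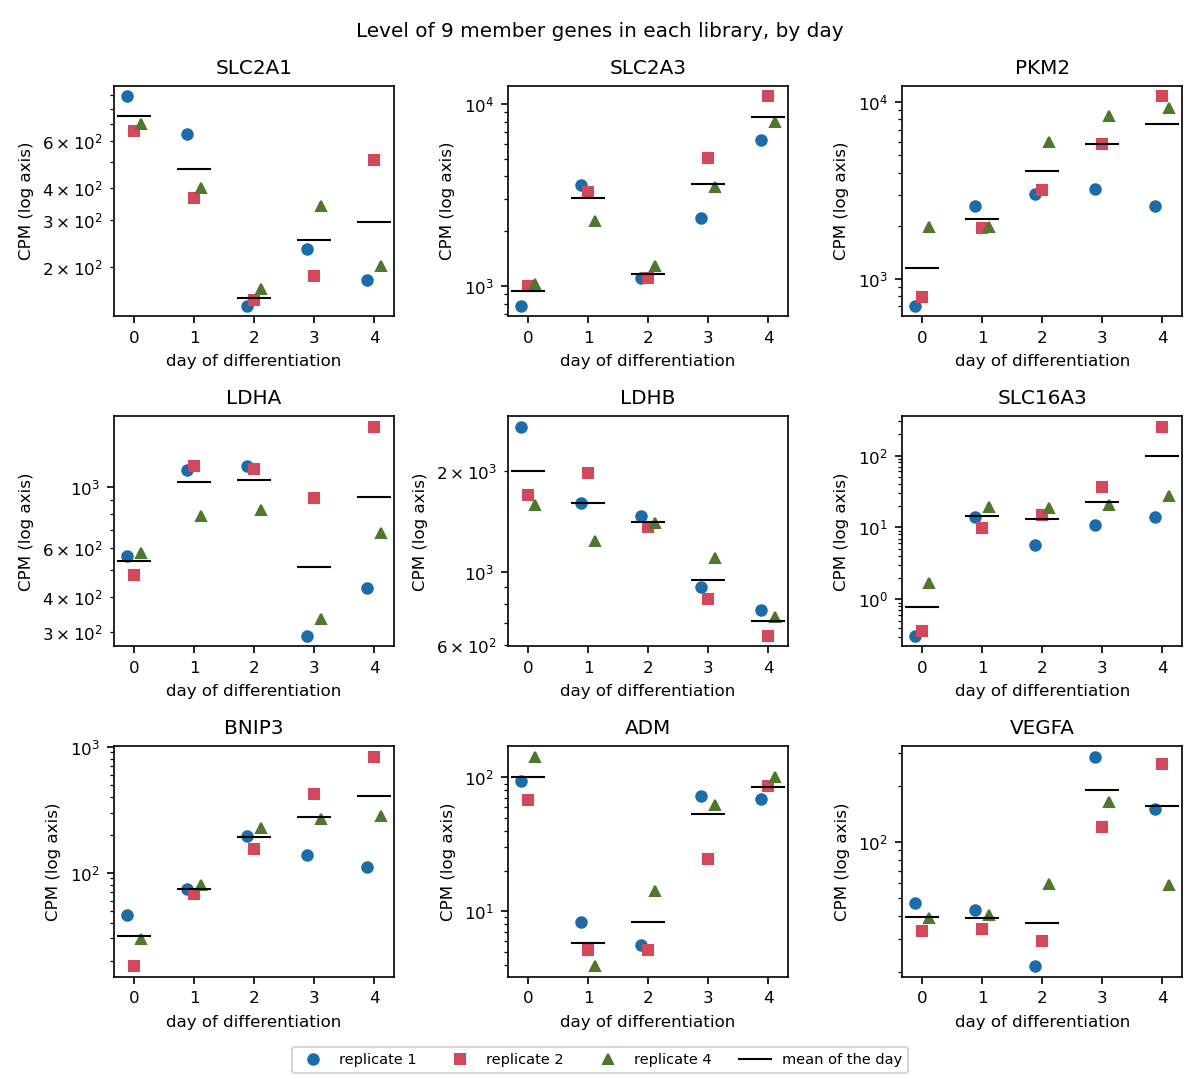
CPM (log axis) of 9 members in each library against day of differentiation, with replicates 1, 2 and 4 as circles, squares and triangles and a bar at the mean of the day. SLC2A3 and PKM2 end above their day 0 values, SLC2A1 and LDHB below, ADM dips on days 1 and 2, and replicate 2 is far above the other libraries for SLC16A3, BNIP3 and LDHA on day 4.

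Of the 8 genes of upper glycolysis, PFKL, PFKM and PFKFB4 rose on day 4 against day 0, and 5 were not called. PFKL, the liver-type phosphofructokinase subunit, had 69.1, 347 and 255 CPM on day 4, against 24.8, 25.2 and 97.0 on day 0 (log2 fold change 2.19 with SE 0.68, adjusted p = 0.021). Day 0 replicate 4 and day 4 replicate 1 overlapped, and the call was lost without day 0 replicate 1, day 0 replicate 2, day 4 replicate 2 or day 4 replicate 4 (adjusted p up to 0.0945). PFKM, the muscle-type subunit, had 112, 134 and 106 CPM on day 4, against 45.9, 82.8 and 84.5 on day 0, with no overlap (log2 fold change 0.73 with SE 0.27, adjusted p = 0.0451). That call was lost without 5 libraries in turn, day 0 replicate 1, day 1 replicate 4, day 2 replicate 2 and day 4 replicates 2 and 4 (up to 0.129). The platelet-type subunit PFKP had a log2 fold change of -0.13 (adjusted p = 0.859). PFKFB4, which makes fructose-2,6-bisphosphate, the activator of phosphofructokinase, had 17.4, 94.6 and 18.8 CPM on day 4, against 7.43, 11.6 and 16.3 on day 0 (log2 fold change 1.89 with SE 0.58, adjusted p = 0.0201). Replicate 2 carried much of its day 4 mean: without that library, or without day 0 replicate 1 or 2, the call was lost (adjusted p up to 0.291). Its relative PFKFB3 had 46.8, 105 and 37.6 CPM on day 4, against 33.8, 60.7 and 54.0 on day 0, a change that was not called (adjusted p = 0.54). HK2, the inducible hexokinase, had 73.7, 796 and 72.1 CPM on day 4, against 134, 238 and 207 on day 0 (log2 fold change 0.70 with SE 0.66, adjusted p = 0.439), so replicate 2 stood 10.9-fold above the geometric mean of its fellow day 4 libraries while those lay below every day 0 library. Without day 4 replicate 2, HK2 was called lower (log2 fold change -1.37, edgeR adjusted p = 0.0122). HK1, the housekeeping hexokinase, had 185 ± 72.7 CPM on day 4, against 267 ± 124 CPM on day 0 (adjusted p = 0.392), and GPI, glucose-6-phosphate isomerase, 247 ± 136 CPM on day 4, against 311 ± 125 CPM on day 0 (adjusted p = 0.566). All ± values are SD over 3 libraries.

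In lower glycolysis GAPDH fell and pyruvate kinase rose. GAPDH, which oxidises glyceraldehyde-3-phosphate and is often used as a reference gene, had 9303, 4549 and 5170.4 CPM on day 0, 4839.6, 4385 and 3742 on day 1, 3891, 4164 and 4137 on day 2, 2575, 2432 and 3219 on day 3 and 2554, 3155 and 2698 on day 4. Day 4 and day 0 did not overlap (log2 fold change -1.18 with SE 0.27, adjusted p = 0.00393). PKM2, the older symbol of PKM, encodes pyruvate kinase, and its single entry does not separate splice forms. PKM2 had 704, 794 and 1974 CPM on day 0, 2602, 1939 and 1981 on day 1, 3015, 3206 and 5959 on day 2, 3241, 5814 and 8318 on day 3 and 2603, 10796 and 9280.2 on day 4. All day 4 libraries exceeded all day 0 ones (log2 fold change 2.71 with SE 0.54, adjusted p = 0.00142). ENO2, the neuron-type enolase, had 150.1, 289 and 94.7 CPM on day 4, against 63.0, 59.0 and 94.6 on day 0 (log2 fold change 1.30 with SE 0.40, adjusted p = 0.02), with adjusted p up to 0.145 without day 0 replicate 1, day 0 replicate 2 or day 4 replicate 2. The other 6 enzymes were not called on day 4 against day 0. These were ALDOA and ALDOC, the aldolases (-0.09 and -1.13, adjusted p = 0.896 and 0.0708), TPI1, triose-phosphate isomerase (0.40), PGK1, phosphoglycerate kinase (0.35), PGAM1, phosphoglycerate mutase (-0.36), and ENO1, the main enolase (0.79), all as log2 fold changes. ALDOC did not overlap between the days, with 37.7, 57.5 and 20.6 CPM on day 4 and 82.1, 90.7 and 80.0 on day 0. On a CPM per kilobase scale PKM2 was the highest member on day 4 (2283), where GAPDH ranked 4 of 37 (1260.1), and GAPDH was the highest on day 0 (2851). These ranks use the mean of a day. PKM2 was highest in day 4 replicates 2 and 4, but in day 4 replicate 1 it ranked 4 (786 CPM per kilobase), after SLC2A3 (1621), GAPDH (1149) and ENO1 (822), while GAPDH was highest in each day 0 library. Several genes of this group have processed pseudogenes, so their counts are uncertain to that extent.

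Of the 5 genes of lactate and pyruvate handling, SLC16A3 rose, LDHB fell and 3 were not called on day 4 against day 0. SLC16A3 encodes MCT4, a lactate exporter of glycolytic cells. SLC16A3 had 0.308, 0.357 and 1.69 CPM on day 0, 14.1, 9.81 and 19.2 on day 1, 5.76, 15.1 and 18.7 on day 2, 10.6, 36.8 and 20.3 on day 3 and 13.9, 252 and 27.3 on day 4. It rose on day 1 against day 0 (log2 fold change 4.18 with SE 0.99, adjusted p = 0.0125), a call lost without day 0 replicate 1 or 2 (adjusted p up to 0.0757), and on day 4 against day 0 (log2 fold change 6.95 with SE 1.13, adjusted p = 0.000301). Its fitted day 4 change was 4.75 to 8.25 over leave-one-out fits, the lowest without day 4 replicate 2 and the highest without day 0 replicate 4. SLC16A1, the widespread transporter MCT1, had 2228, 904 and 782 CPM on day 4, against 2799, 2383 and 1133 on day 0 (adjusted p = 0.223). LDHA and LDHB are the lactate dehydrogenase subunits usually linked to pyruvate reduction and lactate oxidation. LDHB had 764, 640.4 and 732 CPM on day 4, against 2724, 1700.3 and 1584 on day 0, with no overlap (log2 fold change -1.49 with SE 0.27, adjusted p = 0.000658). LDHA had 430.1, 1652 and 682 CPM on day 4, against 564, 482 and 577 on day 0 (log2 fold change 0.77 with SE 0.47, adjusted p = 0.217), and its day 4 libraries overlapped those of day 0. PDK1, a kinase that restrains pyruvate dehydrogenase, had 139 ± 75.2 CPM on day 4, against 121 ± 42.8 CPM on day 0 (adjusted p = 0.732).

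Ratios within related genes compare members in the same library. They are not corrected for GC content, which differs within some pairs, as for PFKL (64.1%) and PFKP (57.5%) or BNIP3 (51.4%) and BNIP3L (38.9%). On day 0, GC content correlated with a library's deviation from its day's mean at -0.42, -0.47 and 0.75 for replicates 1, 2 and 4. The part of GC content in these ratios was not tested. Of 12 such pairs, 7 did not overlap between day 1 and day 0 and 6 between day 4 and day 0, each at p = 0.1 by the exact permutation test (Benjamini-Hochberg adjusted over the 12 pairs, 0.171 for day 1 and 0.2 for day 4), the smallest p that 3 libraries against 3 allow. The share over other gene pairs is not given, so these counts have no background. For single genes, 15.8% were higher and 14.1% lower with no overlap on day 1 against day 0. On day 4 against day 0 those shares were 21.1% and 19.5%. The log2 ratio of LDHB to LDHA was 0.83, -1.37 and 0.10 on day 4, against 2.27, 1.82 and 1.46 on day 0, a difference of -1.99 (SE 0.69, exact permutation test, two-sided p = 0.1). The log2 ratio of PFKP to PFKL was 0.03, -2.12 and -1.11 on day 4, against 1.41, 1.30 and 0.75 on day 0 (difference -2.22 (SE 0.65, exact permutation test, two-sided p = 0.1)). BNIP3L to BNIP3 was 0.03, -3.07 and -2.84 on day 4, against 1.49, 2.05 and 0.39 on day 0 (difference -3.27 (SE 1.11, exact permutation test, two-sided p = 0.1)). HK2 to HK1 overlapped between the days, with a range on day 4 of -1.74 to 1.93.

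**Figure D3:**
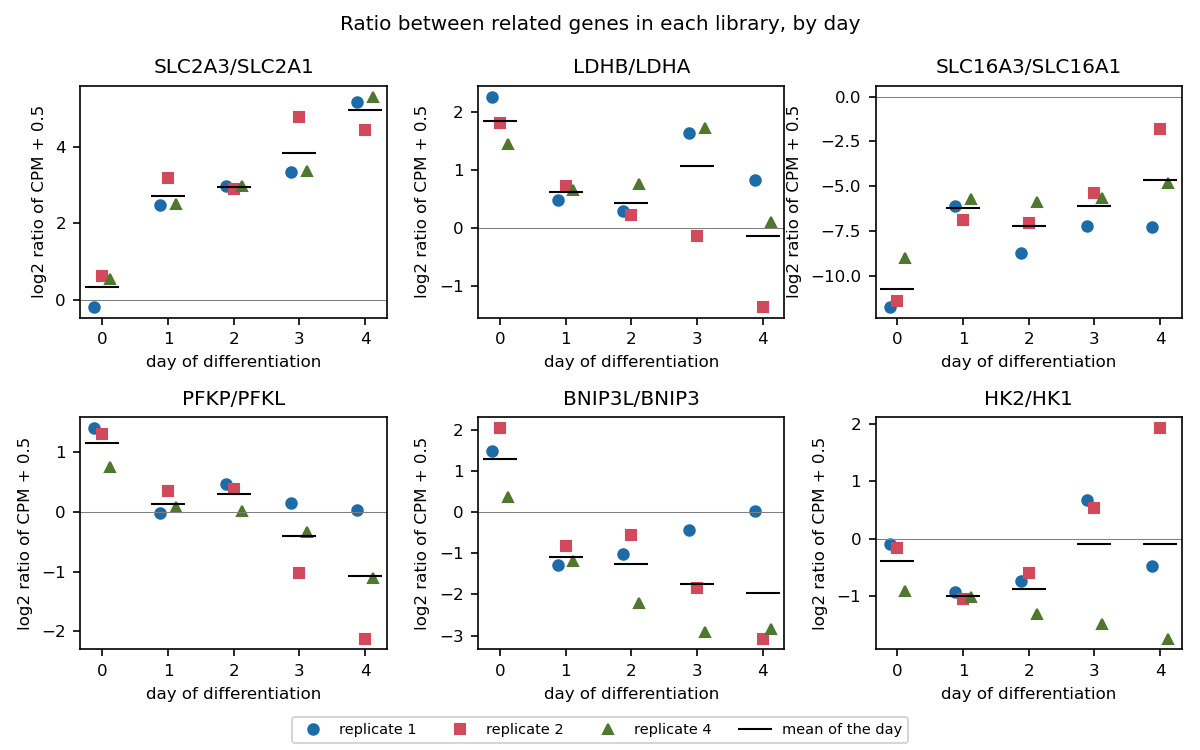
Log2 ratio of CPM + 0.5 between the named genes in each library, against day, for 6 of 12 related pairs; symbols are the 3 libraries of a day and bars their means. SLC2A3/SLC2A1 and SLC16A3/SLC16A1 are higher on day 4 than on day 0, LDHB/LDHA, PFKP/PFKL and BNIP3L/BNIP3 lower, and HK2/HK1 is widely spread on day 4.

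Of 13 HIF targets, 7 rose on day 4 against day 0, 0 fell (0 by DESeq2 and 0 at an unadjusted p under 0.05) and 6 were not called. Over all genes 18.0% were higher and 16.2% lower. The median log2 fold change was 1.99, against -0.02 over all genes tested. The 13 leave out members counted under glucose uptake, glycolysis or lactate, although HIF targets include many glycolytic genes. Of those members, SLC2A1, GAPDH and LDHB fell, and SLC2A3, PFKL, PFKM, PFKFB4, ENO2, PKM2 and SLC16A3 rose. The count of 0 falls therefore holds for this grouping only. BNIP3, which acts in mitophagy and cell death, had 46.2, 18.1 and 29.9 CPM on day 0, 73.6, 68.1 and 79.4 on day 1, 195, 155 and 228 on day 2, 137, 419 and 267 on day 3 and 111, 830.3 and 284 on day 4 and rose on day 4 against day 0 (log2 fold change 3.70 with SE 0.62, adjusted p = 0.000372) with no overlap. For NDRG1, P4HA2, P4HA1 and VEGFA, too, no day 4 library overlapped a day 0 one. NDRG1, a stress-responsive gene, had 8.91, 54.9 and 32.5 CPM on day 4, against 3.62, 1.33 and 3.94 on day 0 (log2 fold change 3.44 with SE 0.70, adjusted p = 0.00174). P4HA2 and P4HA1 encode collagen prolyl hydroxylase subunits. P4HA2 had 15.4, 39.0 and 20.8 CPM on day 4, against 1.37, 1.31 and 4.19 on day 0 (log2 fold change 3.45 with SE 0.52, adjusted p = 0.000168), and P4HA1 had 212, 435 and 173 CPM on day 4, against 68.1, 86.3 and 52.8 on day 0 (log2 fold change 1.98 with SE 0.39, adjusted p = 0.00133). MXI1, a MYC antagonist, had 11.9, 6.43 and 6.16 CPM on day 0, 5.02, 4.52 and 6.88 on day 1, 27.4, 25.4 and 16.8 on day 2, 37.9, 33.9 and 21.4 on day 3 and 45.1, 45.1 and 33.5 on day 4. Its day 2 libraries all exceeded day 1 (log2 fold change 2.08 with SE 0.35, adjusted p = 0.0018), and it was also higher on day 4 than on day 0 (log2 fold change 2.34 with SE 0.36, adjusted p = 0.000189). VEGFA, the angiogenic growth factor, rose on day 3 against day 2 (log2 fold change 2.38 with SE 0.50, adjusted p = 0.036) and on day 4 against day 0 (log2 fold change 1.99 with SE 0.49, adjusted p = 0.006). It had 46.8, 32.9 and 38.8 CPM on day 0, 42.9, 33.9 and 40.4 on day 1, 21.4, 29.3 and 59.0 on day 2, 287, 121 and 163 on day 3 and 149, 261 and 58.3 on day 4. Its day 3 call was lost in 6 leave-one-out fits, those without each day 1 library in turn, day 2 replicate 1, day 2 replicate 2 and day 3 replicate 1 (adjusted p up to 0.213). ANKRD37, a small ankyrin-repeat gene, was below 1 CPM in every library but day 4 replicate 2, at 0.0982, 3.61 and 0.389 CPM on day 4, against 0.0947, 0.0794 and 0.285 CPM on day 0 (log2 fold change 3.14 with SE 1.13, adjusted p = 0.0415). Its call was lost without that library, day 0 replicate 1, day 0 replicate 2, day 1 replicate 1 or day 2 replicate 2 (adjusted p up to 0.667).

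ADM fell on day 1 and rose again on day 3. ADM, which encodes the vasodilator adrenomedullin, had 94.3, 67.8 and 142 CPM on day 0, 8.29, 5.11 and 3.89 on day 1, 5.62, 5.17 and 14.3 on day 2, 72.7, 24.8 and 62.6 on day 3 and 68.9, 86.3 and 100.2 on day 4. It fell on day 1 against day 0 (log2 fold change -4.14 with SE 0.52, adjusted p = 8.69e-05), with all 15 leave-one-out fits keeping the call, and rose on day 3 against day 2 (log2 fold change 2.67 with SE 0.49, adjusted p = 0.0213), lost without day 2 replicate 1, day 2 replicate 2 or day 3 replicate 1 (up to 0.159). Day 4 against day 0 had a log2 fold change of -0.25 (adjusted p = 0.704). DDIT4, an inhibitor of mTOR signalling, had 689.6, 158 and 1069 CPM on day 3 and 30.7, 55.2 and 303 on day 2 and was called by the joint test alone (adjusted p = 0.0305). That call was lost without day 0 replicate 1 or 2, day 1 replicate 2 or day 3 replicate 1 or 4 (adjusted p up to 0.113). EGLN1 and EGLN3, oxygen-sensing prolyl hydroxylases, had log2 fold changes of 0.94 and 0.92 on day 4 against day 0 (adjusted p = 0.109 and 0.113). BNIP3L, a mitophagy receptor, had 0.03 (adjusted p = 0.971). CA9, carbonic anhydrase 9, a gene often used as a hypoxia marker, stayed between 0.284 and 1.23 CPM in every library.

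**Figure D4:**
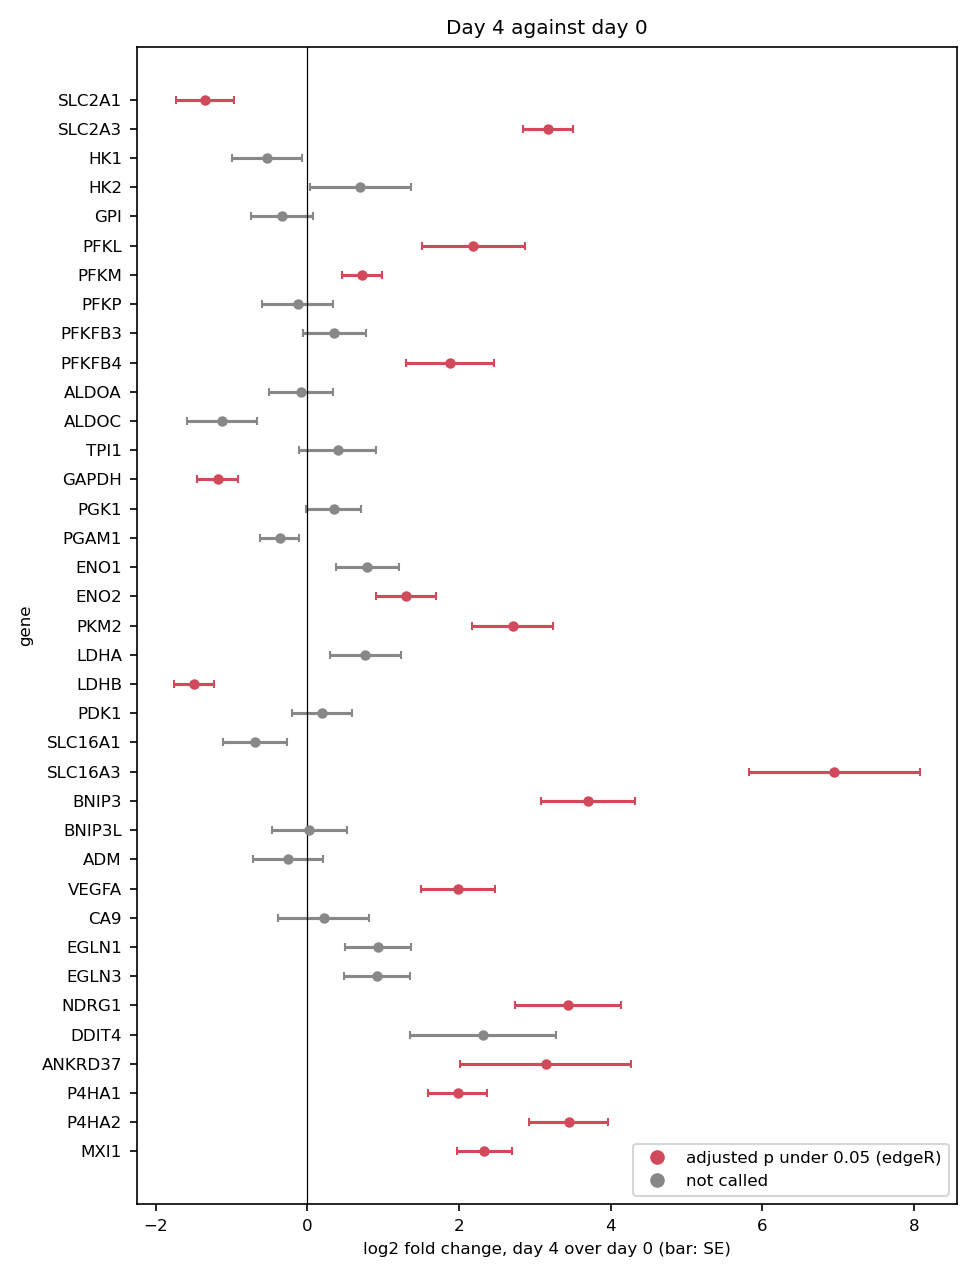
Log2 fold change of day 4 over day 0 for each member, with its SE, ordered by role; red points passed an adjusted p of 0.05 by edgeR's quasi-likelihood test and grey points did not. SLC16A3 is furthest to the right at 6.95 and LDHB furthest to the left at -1.49.

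Day 4 libraries differed widely for these genes. The median SD of members' log2(CPM + 0.5) over the 3 libraries was 0.542 on day 0, 0.247 on day 1, 0.405 on day 2, 0.556 on day 3 and 0.818 on day 4, while over all genes tested it was 0.454, 0.213, 0.325, 0.391 and 0.385. On day 4, 10 of 37 members had an SD over 1, against 6.02% of all genes. Replicate 2 stood out: it was the highest day 4 library for 29 of 37 members (78.4%), against 29.2% of all genes tested. Its median log2 difference from the other two was 1.10 over members and 0.00 over all genes. With trends of GC content and gene length removed, it was highest for 29 of 37 (30.3% of all genes). Of the aldolase to pyruvate kinase members it was highest for 9 of 9. Among 38 other HIF targets it was highest for 24, and among 23 other glucose and glycolysis genes for 6. The differences were 3.66 for SLC16A3, 3.44 for HK2, 3.13 for DDIT4 and 2.22 for BNIP3, and -1.43 for EGLN3 and -0.55 for SLC16A1. On day 3, replicate 2 was highest for 16 of 37 (43.2%, against 30.8%). Without day 4 replicate 2, 10 members were called higher on day 4 than on day 0 (27.0% of members, against 13.8% of the 17729 genes tested in that fit), with the calls of PFKL, PFKM, PFKFB4, ENO2 and ANKRD37 lost and EGLN3 called. Without replicate 1 of both day 3 and day 4, a setting added after the data were seen, 22 of the 26 calls of members in the 5 comparisons held, those lost being SLC2A1 and PFKM on day 4 against day 0 and ADM and VEGFA on day 3 against day 2. Across 16494 genes, the correlation of GC content with a library's deviation from its day's mean was -0.53, 0.32 and 0.46 for replicates 1, 2 and 4 of day 4. Cell markers also differed between the day 4 libraries. Summed over 6 definitive endoderm markers, replicates 1, 2 and 4 had 886, 4338 and 3075 CPM, over 5 primitive streak markers 98.2, 711 and 654 CPM, and over 6 mesoderm markers 116, 40.1 and 110.2 CPM. In blood and endothelial markers they had 188, 46.8 and 118 CPM, with HBZ at 0, and in trophoblast markers 103, 24.3 and 37.3 CPM, with CGB and ELF5 at 0. In neural and surface ectoderm markers they had 47.0, 173 and 201 CPM, with SOX1 at 0, in pluripotency markers 268, 216 and 518 CPM and in fibroblast and feeder markers 204, 210.0 and 366 CPM. The part of cell makeup in the members' day 4 differences was not tested, and in bulk RNA fewer cells of a type and less RNA per cell cannot be told apart.

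**Figure D5:**
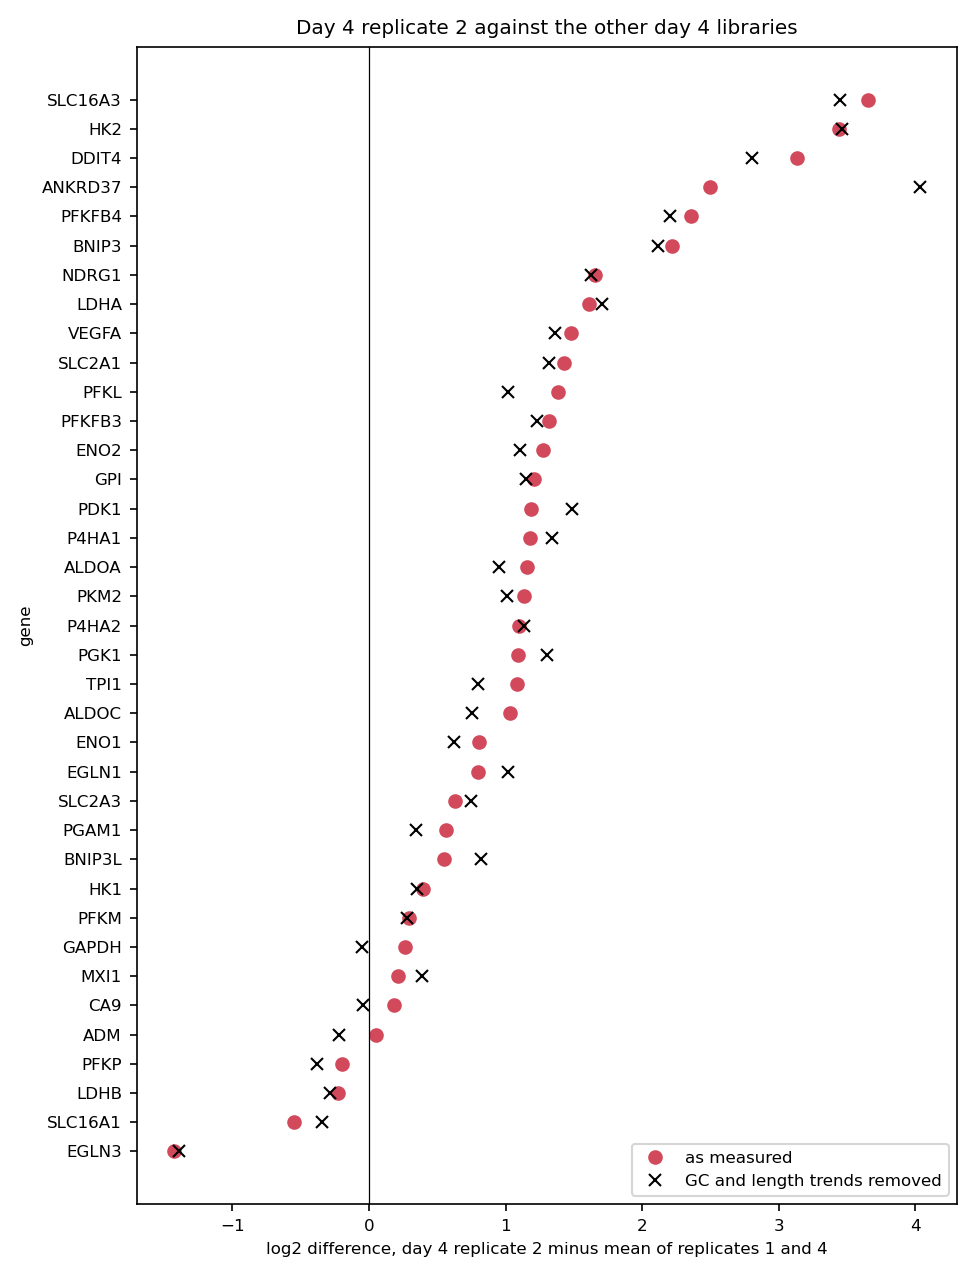
For each member, the log2 difference of day 4 replicate 2 from the mean of replicates 1 and 4, as measured (red circles) and with GC and length trends removed (crosses). Most members lie to the right of 0, up to 3.66 for SLC16A3, and EGLN3 lies furthest to the left at -1.43.

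Genes next to the members in these pathways were taken from lists chosen by name, and were compared between day 4 and day 0 in the same fit, where 18.0% of all genes were higher and 16.2% lower. Of 23 other glucose uptake and glycolysis genes, 3 were higher (ENO3 3.20, SLC2A14 3.20 and PGM1 2.45, as log2 fold changes) and 3 lower, 13.0% each way and below both shares of all genes. Of 13 genes of pyruvate entry to mitochondria, 0 were higher (0 by DESeq2 and 1, PC, at an unadjusted p under 0.05) and 4 lower, with BRP44L, a mitochondrial pyruvate carrier subunit, at -2.61. Of 8 pentose phosphate genes, H6PD, which makes NADPH in the endoplasmic reticulum, was higher (3.39) and RPE lower (-1.43). FBP1, which reverses phosphofructokinase's step, was the 1 of 4 gluconeogenesis genes called, at -2.25. Of 38 other HIF targets, 13 were higher and 3 lower, with BHLHE40, a clock-linked repressor, at 4.02, and CXCR4 at 7.54, which is also one of the endoderm markers. Of 12 oxygen-sensing genes, 3 were higher and 2 lower. Among the higher were CITED2, a HIF inhibitor, at 2.05, and HIF3A, which encodes another HIF alpha subunit, at 1.49 (edgeR adjusted p = 0.00199). HIF1A, the main HIF alpha subunit, had 232 ± 45.0 CPM on day 4, against 352 ± 94.8 CPM on day 0 (log2 fold change -0.61, adjusted p = 0.101). EPAS1, which encodes HIF-2alpha, fell on day 1 against day 0 (log2 fold change -2.92 with SE 0.55, adjusted p = 0.00243) and rose on day 3 against day 2 (log2 fold change 2.74 with SE 0.55, adjusted p = 0.0276). Its levels were low, with means of 4.15 CPM on day 0, 0.550 on day 1, 0.513 on day 2 and 3.42 on day 3. On day 4 against day 0 EPAS1 was not called (log2 fold change -0.30, adjusted p = 0.678). VHL, which marks HIF alpha subunits for destruction, was not called in any comparison.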

How the data were processed

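The authors deposited whole-number counts for each gene symbol in each library, not normalized. The submitters' processing notes name TopHat2 2.0.14 and build hg19. How reads were counted, with which annotation and strand setting, is not stated in the labels or notes. Of 23398 entries, 44 identical repeats were dropped and 8 summed, and every count was even. A count of 3 was worth 0.0206 to 0.0548 CPM. Members and lists were chosen with earlier results of these data known.

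Counts were tested with edgeR 4.0.16 (R 4.3.3) as deposited, with TMM scaling, filterByExpr by day, a mean per day, all 15 libraries in a single quasi-likelihood fit, and Benjamini-Hochberg adjustment over 17401 genes at 0.05. The biological coefficient of variation was 45.6%. CPM use TMM-scaled library sizes, and values per kilobase use GENCODE 29 exon lengths on GRCh38, not the authors' build. Ratios were taken of CPM + 0.5. The scripts were tested on simulated data. The deviations of same-numbered libraries from their day's mean correlated over 0.1 in 21 of 30 pairs (-0.21 to 0.63). All 3 pairs did so for days 2 and 0, days 3 and 2, and days 4 and 3, and in both later pairs of days every library correlated best with its own number, so the numbers pair the libraries there by correlation and not by any label. Alternatives were DESeq2 1.42.0, other scalings and filters, the replicate number as a block, only the days compared and each library left out. Added with the data seen were halved counts, removal of GC and length trends, alone or with the block, and leaving out replicate 1 on both day 3 and day 4. Members could all be named. From each other list up to 3 called genes of largest change in a comparison could be named, besides HIF1A, EPAS1 and VHL. Promoters were RefSeq windows of members with small joint p that hold a match, beside 1 without.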

Additional observations from a re-analysis of the deposited data

How the results depend on the processing

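Calls were made with edgeR unless another tool is named. Of 26 calls of members in the 5 comparisons, DESeq2, DESeq2's size factors, library totals alone and halved counts kept all 26. No filter lost PFKM and removed GC and length trends lost PFKFB4, both on day 4 against day 0, and a fit of only the 2 days compared kept 18. A filter of CPM over 1 in 3 libraries dropped ANKRD37 and kept the other 25. With the replicate number as a block, 25 of 26 calls held (ANKRD37 lost), 2 members were lower on day 1 than on day 0 and 5 were higher on day 2 than on day 1, and over all genes the higher and lower counts were 1608 and 1305 at the first step, 1298 and 1168 at day 2 and 371 and 219 at day 3, each against the day before. With the block and GC and length trends removed together, 4 members were called higher for day 1 against day 0 and 7 lower, with 7 higher on day 2 than on day 1 and 9 lower on day 4 than on day 0, and over all genes the higher and lower counts of these 3 steps were 1701 and 1865, 1739 and 1683, and 686 and 699, with 4471 lower for day 4 against day 0 and 9765 called jointly. With those trends alone removed, 2 members were lower on day 1 than on day 0, 3 higher on day 2 than on day 1 and 5 lower on day 4 than on day 0, and over all genes 1462 were lower for day 1, 1418 higher and 1205 lower for day 2, and 446 and 416 for day 3. No count over all genes is given there beside the 5 members lower on day 4. With only the 2 days compared, 4 members were higher on day 1 than on day 0, for which no count over all genes is given. In such fits 7 members were higher on day 2 than on day 1 and 0 higher on day 3 than on day 2. Over all genes 1506 were higher and 1308 lower for day 2, 0 and 0 for day 3, and 1798 lower for day 4 against day 0. DESeq2 called 3 members higher on day 2 than on day 1, and over all genes 1447 lower for day 1, 1405 higher and 1053 lower for day 2, 623 higher and 341 lower at day 3, and 27 higher and 37 lower at day 4 against day 3. Without replicate 1 of days 3 and 4, 2 members were higher on day 2 than on day 1, as were 1065 of 17609 genes (6.05%). In that fit 1 member was higher on day 3 than on day 2, where 57 genes were higher and 11 lower in all.

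Leaving out each library in turn, members called higher ran from 1 to 3 on day 1 against day 0, 1 to 2 on day 2 against day 1, 0 to 3 on day 3 against day 2 and 9 to 16 on day 4 against day 0. Members called lower ran from 1 to 2, 0 to 2, 0 to 0 and 2 to 5 in the same comparisons, and 7 to 11 of the 12 related pairs did not overlap between day 1 and day 0. A pair without overlap stays so when a library is left out, so that count of pairs could only stay or rise. Over all genes, with 956, 857 and 115 higher and 850, 582 and 50 lower at the first 3 steps, the ranges were 624 to 1484, 384 to 984 and 4 to 175 higher and 380 to 1155, 183 to 656 and 1 to 79 lower. For day 4 against day 0 they were 2438 to 3707 higher and 1613 to 2933 lower. With all libraries 3137 were higher and 2811 lower in that comparison. The median SD of members on day 4 was 0.527 over the 2 libraries left without replicate 1. That is not directly comparable with 0.818 over 3 libraries, since an SD over 2 values tends to be smaller. Values without replicate 2 and over all genes are not given, so it does not show which library set the spread. HK2 on day 4 against day 0, not called with all libraries, had log2 fold changes from -1.37 without day 4 replicate 2, where it was called lower, to 1.21 without day 4 replicate 1. The causes of these shifts were not tested. Every library had 54723184 counts or more, and counting limits precision most for ANKRD37 and CA9, which were mostly below 1 CPM.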
